A study of Mus musculus with 2 samples.

Results

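Toll-like receptors and the proteins that work beside them were compared between livers of L-Lpcat3 KO mice, which carry Albumin-Cre on the Lpcat3fl/fl background, and of control mice, which are Lpcat3fl/fl without Cre. The group holds 10 genes, taken by name and not by any measured value: the receptors Tlr1, Tlr2, Tlr3, Tlr4, Tlr5, Tlr7 and Tlr8, the lipopolysaccharide co-receptors Cd14 and Ly96, and the adaptor Myd88. All 10 genes were found on the array, through 16 of 34945 probe sets that carry a single gene symbol, among 18193 genes in all. Every mouse was male, homozygous for the floxed Lpcat3 allele, 16 weeks old, kept on a western diet from week 7 of age for 9 weeks and fasted for 6 hr before the liver was taken. RNA of 5 mice was pooled for each genotype and each pool was hybridized to 1 Affymetrix array. The albumin promoter drives Cre in hepatocytes, so Kupffer cells, endothelial cells and leukocytes of the L-Lpcat3 KO liver keep an intact gene.

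Toll-like receptors recognise conserved molecules of microbes. Tlr1, Tlr2, Tlr4 and Tlr5 sit at the cell surface and bind bacterial lipoproteins, lipopolysaccharide and flagellin, whereas Tlr3, Tlr7 and Tlr8 lie in endosomes and are known as receptors of nucleic acids. Cd14 passes lipopolysaccharide to the complex of Tlr4 with Ly96 (MD-2), and Myd88 couples all of these receptors except Tlr3 to the kinases that activate NF-κB. In liver, Kupffer cells carry most of these proteins and meet bacterial products that arrive in portal blood, and some members are also made by endothelial cells, leukocytes and hepatocytes.

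Values are MAS5 signal intensities on a linear scale. Signals under 86.6, the median over both arrays, were raised to that floor, and a probe set that reached it on 1 array only gives a lower bound of the difference. Ratios are L-Lpcat3 KO over control, the probe set with the highest mean log2 signal represents a gene, and a gene was called at a 2-fold difference. A pool is a single sample, so no difference between genotypes has a replicate check and no test was made. Probe sets of 1 gene differed from each other with a pooled SD of 0.29 on the log2 scale over 4476 genes, and it was 0.39 over the 404 such genes in the lowest quartile of signal. These spreads stand in for measurement error and hold no variation between mice. Signals of different probe sets are not comparable as transcript levels, so no order of levels between genes is given; where the gene of highest signal in a list is named, or signals are summed, this serves only to choose or describe probe sets. Lpcat3 itself had a signal of 2198 in L-Lpcat3 KO liver and 5173 in control liver, a log2 ratio of -1.23.

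Among the 10 genes, Tlr1 alone was called. Its signal was 2.52-fold higher in L-Lpcat3 KO liver, ahead of Tlr2 (1.62-fold) and Cd14 (1.44-fold), while Tlr5, Ly96 and Myd88 lay between 1.05- and 1.14-fold. The probe sets of Tlr3 differed in direction, Tlr4 and Tlr7 reached the floor in L-Lpcat3 KO liver alone, and Tlr8 stayed below it in both livers. Of the 9 genes measured on at least 1 array, 1 was at least 2-fold higher (11.1%), beside 2.70% of 12290 measured genes, and none was 2-fold lower, beside 0.700%. At 1.5-fold, 2 of the 9 were higher (22.2%) and none lower, beside 9.07% and 3.83% of measured genes. With 9 genes, these shares rest on 1 and 2 genes.

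Promoter windows were read from RefSeq (GRCm38.p6), from 250 bases before to 50 bases after a transcription start, for 6 of the 10 genes; Cd14, Ly96, Tlr4 and Tlr7 had no entry. They are shown for Tlr1, the called gene, for Tlr2, the partner with which Tlr1 pairs at the membrane, and for Myd88, which differed little between the livers. Each was searched on both strands for a PU.1 motif (GAGGAAGT), an AP-1 motif (TGANTCA), an NF-κB motif (GGANNTTCC) and an interferon response motif (GAAANNGAA). PU.1 is an Ets factor of myeloid and B cells. Capitals mark matches. The Tlr1 window lies at chr5:64933509-64933808, the Tlr2 window at chr3:83841559-83841858 and the Myd88 window at chr9:119339969-119340268, all on the minus strand.
Tlr1: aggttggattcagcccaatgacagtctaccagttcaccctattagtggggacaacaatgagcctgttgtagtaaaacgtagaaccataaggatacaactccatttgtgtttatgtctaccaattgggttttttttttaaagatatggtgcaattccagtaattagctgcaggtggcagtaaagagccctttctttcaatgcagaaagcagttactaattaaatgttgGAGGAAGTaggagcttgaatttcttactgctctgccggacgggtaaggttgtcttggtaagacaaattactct
Tlr2: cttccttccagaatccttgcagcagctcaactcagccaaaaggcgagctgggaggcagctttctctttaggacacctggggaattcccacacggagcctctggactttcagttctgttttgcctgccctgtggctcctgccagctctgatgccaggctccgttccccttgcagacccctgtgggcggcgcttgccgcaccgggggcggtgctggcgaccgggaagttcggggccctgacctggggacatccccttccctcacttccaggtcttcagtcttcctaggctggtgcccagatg
Myd88: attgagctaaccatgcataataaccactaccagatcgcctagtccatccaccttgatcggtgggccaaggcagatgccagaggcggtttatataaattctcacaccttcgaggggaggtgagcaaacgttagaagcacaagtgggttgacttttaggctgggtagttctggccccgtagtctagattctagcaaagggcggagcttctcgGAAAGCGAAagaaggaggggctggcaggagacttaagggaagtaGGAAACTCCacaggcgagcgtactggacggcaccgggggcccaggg
In this Tlr1 window the PU.1 motif begins at position -23 from the start. A further window of Tlr1, at another start, held none of the motifs. The PU.1 motif was present in 3.20% of 32851 windows of this length and in 3.69% of 27025 genes. Tlr1 was the only one of the 6 genes to hold it. Tlr2 held no match to the strings searched, and neither did Tlr5. Other forms of these motifs were not searched, so a window without a match can still hold one. Myd88 held an interferon response match at position -40, on the strand of the gene, and an NF-κB match at position 4, on the other strand; these do not overlap. Tlr3 held an NF-κB match at position -210 and Tlr8 an interferon response match at position -67. Interferon response matches were present in 8.56% of windows (9.76% of genes) and NF-κB matches in 4.26% (4.86% of genes). AP-1 matches, found in none of the 6 genes, were present in 7.81% (8.97% of genes). A match describes the letters of the window and is not evidence of binding.

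Tlr1, which forms a heterodimer with Tlr2 to bind triacylated bacterial lipoproteins, had a signal of 222 in L-Lpcat3 KO liver and 87.9 in control liver. The control value lies just above the floor and the L-Lpcat3 KO value at 2.56 times the floor. The log2 ratio of 1.34 was 3.43 times the spread among probe sets at low signal, and 1.06% of measured genes had one as high. Rises of 2-fold or more were more frequent at low signal. They made up 3.81% of genes on both arrays in the lowest quartile, which holds Tlr1, beside 2.45% of all genes on both arrays. Tlr1 is represented by a single probe set, so its ratio has no second reading. On chromosome 5 the next protein-coding gene is Tlr6, the other partner of Tlr2, whose single probe set read 58.2 in L-Lpcat3 KO liver and 58.9 in control liver. Both values of Tlr6 lie below the floor and give no ratio.

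Tlr2, the receptor of bacterial lipoproteins and peptidoglycan components, had a signal of 170 in L-Lpcat3 KO liver and 105 in control liver. Its log2 ratio of 0.69 did not reach the 2-fold threshold and was 1.78 times the spread among probe sets at low signal. Of genes in the same quartile of signal that reached the floor on both arrays, 15.5% exceeded control by 1.5-fold or more and 3.81% by 2-fold or more. A ratio of the size of Tlr2 was thus not rare among weakly expressed genes, and 6.66% of all measured genes had one as high.

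Tlr4, the lipopolysaccharide receptor, had 4 probe sets, all near or below the floor. The representative probe set read 88.3 in L-Lpcat3 KO liver and 81.6 in control liver, which gives a difference of at least 1.02-fold. Another read 108 in L-Lpcat3 KO liver and 55.0 in control liver, at least 1.24-fold. The remaining probe sets read 27.4 and 22.3 in L-Lpcat3 KO liver, beside 17.7 and 2.59 in control liver, and have no ratio. Each of the 4 read higher in L-Lpcat3 KO than in control liver. Those that reached the floor did so in L-Lpcat3 KO liver alone, so they had to be higher there. Of all named probe sets below the floor on both arrays, 58.2% read higher in L-Lpcat3 KO liver. The count of 4 therefore does not establish a direction, and at this signal the array does not give the size of a difference in Tlr4.

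The proteins that present lipopolysaccharide to Tlr4 were above the floor on both arrays. Cd14, a membrane-anchored and secreted lipopolysaccharide carrier, had a signal of 238 in L-Lpcat3 KO liver and 165 in control liver, a log2 ratio of 0.52 that was 1.64 times the spread at its signal and not called. Ly96, the subunit that holds the lipid of lipopolysaccharide, had a signal of 423 in L-Lpcat3 KO liver and 401 in control liver, a log2 ratio of 0.08 that was less than the spread. Lbp, the plasma protein that delivers lipopolysaccharide to Cd14 and is made by hepatocytes, had a signal of 2669 in L-Lpcat3 KO liver and 3127 in control liver (-0.23 on the log2 scale, and 0.10 on its other probe set). None of these 3 genes reached 2-fold, and they cannot be ranked against Tlr4, which has only lower bounds.

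Tlr5, the flagellin receptor, had a signal of 597 in L-Lpcat3 KO liver and 550 in control liver. Its log2 ratio of 0.12 was 0.479 times the spread among probe sets at its signal. Myd88 read 1172 in L-Lpcat3 KO liver and 1028 in control liver, a log2 ratio of 0.19 and 0.758 times the spread. Both genes lay far above the floor, and 35.9% and 29.3% of measured genes had ratios at least as high as theirs.

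The endosomal receptors gave the least certain values. Tlr3, the receptor of double-stranded RNA, which signals through Ticam1 in place of Myd88, was the only member with a lower signal in L-Lpcat3 KO liver on its representative probe set, 297 against 363 in control liver (log2 ratio -0.29). Its other probe set read 110 in L-Lpcat3 KO liver and 92.1 in control liver (log2 ratio 0.25). Both differences are smaller than the spread among probe sets at their signal, and the representative probe set is of a kind that can match more than 1 transcript. No direction can be given for Tlr3.

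Tlr7, a receptor of single-stranded RNA, had a signal of 99.0 in L-Lpcat3 KO liver and 34.9 in control liver on its representative probe set, which gives at least 1.14-fold because the control value lies below the floor. Its other probe sets stayed below the floor in both livers, with 33.8 and 11.2 in L-Lpcat3 KO liver beside 33.2 and 3.71 in control liver. Tlr8, its neighbour on chromosome X, read 24.7 in L-Lpcat3 KO liver and 14.0 in control liver and was not measured here. The 3 probe sets of Tlr7 therefore hold 1 lower bound and no ratio.

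**Figure D1:**
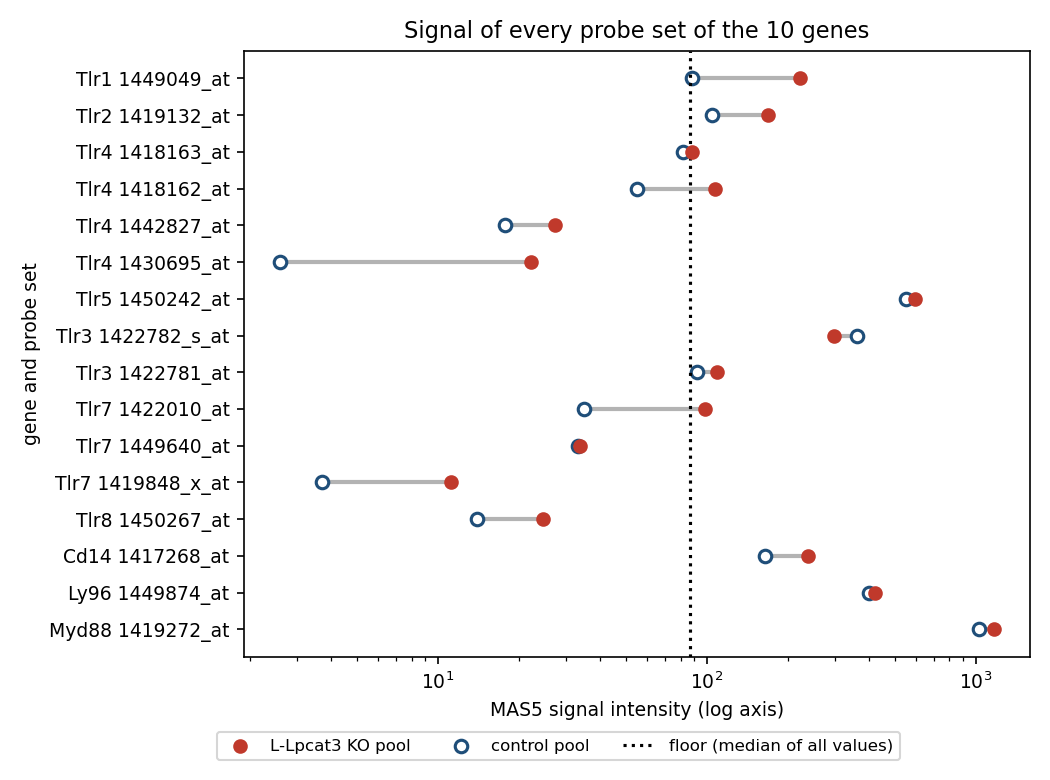
Each row is 1 probe set, with the MAS5 signal on a log axis for the L-Lpcat3 KO pool (filled) and the control pool (open); the dotted line is the floor at 86.6. Tlr1 shows the widest gap among probe sets that reach the floor on both arrays, the upper Tlr3 row runs the other way, and most rows of Tlr4, Tlr7 and Tlr8 touch or lie below the floor.

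Over the 11 probe sets that reached the floor on at least 1 array, 10 read higher in L-Lpcat3 KO than in control liver, 1 of them by 2-fold or more, beside 2.36% of 20847 measured probe sets; 50.8% of measured probe sets were higher. A probe set that reached the floor only in L-Lpcat3 KO liver had to be higher there, which applies to 3 of the 10. Over the 7 genes that reached the floor on both arrays, log2 ratios ran from -0.29 for Tlr3 to 1.34 for Tlr1, 6 were above 0 and the median was 0.19. Over the 10973 genes that did so the median was -0.003, 49.6% were above 0 and 2.45% were at least 2-fold higher. Weakly expressed genes leaned toward higher values as a whole: the median was 0.09 in the lowest quartile of signal and -0.05 in the highest. The 4 members in the lowest quartile are Tlr1, Tlr2, Tlr4 and Tlr7.

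**Figure D2:**
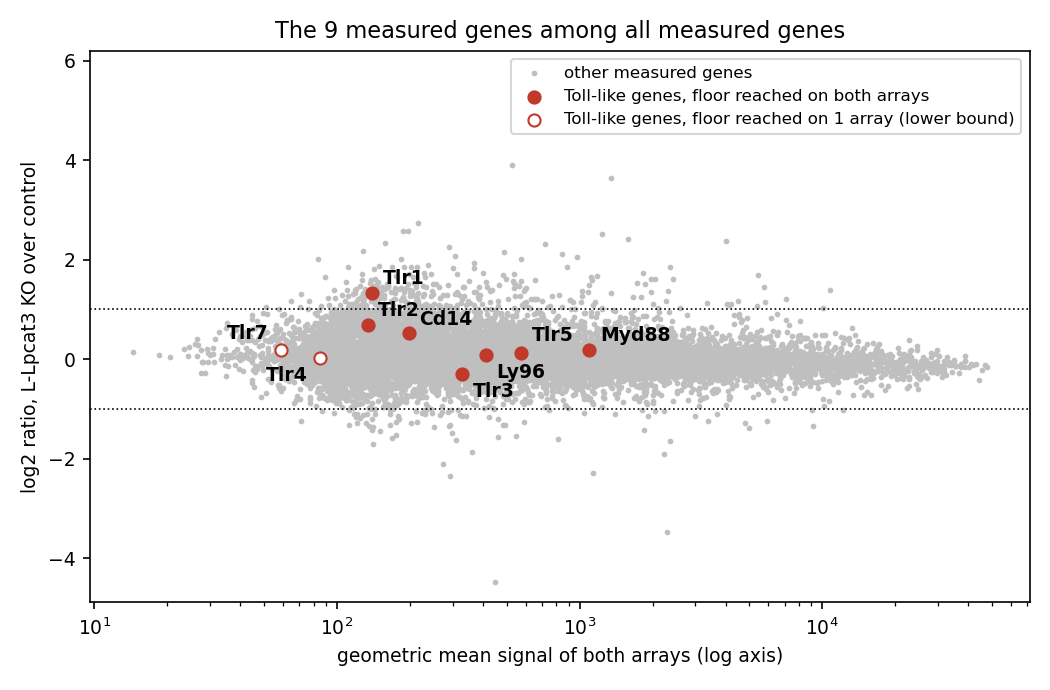
Each grey point is a measured gene, with the geometric mean signal of both arrays on a log axis and, on the vertical axis, log2 of L-Lpcat3 KO over control; the 2-fold limits are dotted. Red points are the Toll-like receptors and co-factors (open where the ratio is a lower bound): Tlr1 at 1.34 lies above the 2-fold line, and Ly96, Tlr5 and Myd88 lie within the band of the other genes.

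Genes of the same pathway outside the 10 were taken from 5 lists. Over all 12290 measured genes, 2.70% were called higher and 0.700% lower, the shares to set beside the count of each list. Of the other Toll-like receptors and the proteins that fold, route or load them, 1 of 11 measured genes was called higher and none lower, with a median log2 ratio of 0.31. The called gene was Ly86 (MD-1), which pairs with Cd180 (RP105) as Ly96 pairs with Tlr4. Ly86 read 891 in L-Lpcat3 KO liver and 404 in control liver (2.21-fold), whereas Ly96 lay at 1.05-fold. Its partner Cd180, a receptor-like protein of B cells and macrophages that has no signalling domain of the Toll type, read 177 in L-Lpcat3 KO liver and 111 in control liver (1.60-fold). The gene of highest signal in this list was Hsp90b1, the chaperone that folds Toll-like receptors in the ER, at a log2 ratio of -0.15.

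The receptors outside the 10 were named after their values were seen. Tlr12, a mouse receptor of protozoan profilin, read 644 in L-Lpcat3 KO liver and 419 in control liver (1.54-fold), and Tlr13, which recognises bacterial ribosomal RNA, read 180 in L-Lpcat3 KO liver and 136 in control liver (1.32-fold). Tlr9, the receptor of unmethylated CpG DNA, read 108 in L-Lpcat3 KO liver and 6.23 in control liver, which gives at least 1.24-fold because the control value lies far below the floor. Unc93b1, which carries the endosomal receptors out of the ER, lay at 1.03-fold.

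Below the receptors, none of 16 adaptors, kinases and ubiquitin ligases reached 2-fold in either direction on its representative probe set. Of all measured genes 3.40% did, so that a count of 0 in a list this short says little. There were 8 genes above 0, 8 below and a median of -0.01. The gene of highest signal was Tab2, which recruits the kinase Tak1, at -0.05. The one gene past 1.5-fold on its representative probe set was Irak1, a kinase bound by Myd88, at -0.78. That probe set is of a kind that can match more than 1 transcript, and the 4 probe sets of Irak1 lay between -0.78 and 0.28. Ikbkb, at -0.12, had 4 probe sets between -1.03 and 0.03, so 1 of them passed 2-fold lower. Ikbkg, at 0.02, had 6 probe sets between 0.02 and 0.63. None of 8 NF-κB subunits and interferon regulatory factors reached 2-fold either, and the same reading applies, with a median of 0.14. Irf8, a factor of myeloid and B cells, was the highest at 0.79. Irf3, the gene of highest signal, lay at -0.09, with 3 probe sets between -0.77 and -0.09. Its representative probe set is of a kind that can match more than 1 transcript. Irak1, Ikbkb, Ikbkg and Irf8 were named after their values were seen.

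Of 11 inhibitors of the pathway 1 was called. Tnfaip3 (A20), a ubiquitin-editing enzyme that ends NF-κB signalling and is itself induced by NF-κB, read 586 in L-Lpcat3 KO liver and 253 in control liver, a log2 ratio of 1.21. Nfkbia, the inhibitor of highest signal and also a target of NF-κB, lay at 0.01, with 5 probe sets from -0.06 to 0.12. The list median was 0.01.

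Among genes that Toll-like receptor ligands induce, 3 of 13 measured genes were called higher, beside 2.70% of all measured genes. None was called lower, beside 0.700%, and the median log2 ratio was 0.45. Lcn2, which withholds bacterial iron carriers, read 3734 in L-Lpcat3 KO liver and 1443 in control liver (1.37). Ccl5, a chemokine for T cells and monocytes, read 325 in L-Lpcat3 KO liver and 158 in control liver (1.04). Vcam1, an endothelial adhesion molecule, had a log2 ratio of 1.30 on its representative probe set, with 3 probe sets between -0.06 and 1.30. Vcam1 was shown by the study as a gene picked from these samples, so its direction is not independent, and without it 2 of 12 were called. Saa1, an acute phase protein and the target of highest signal, lay at 0.07. Ifit1, an interferon-induced gene named after its values were seen, was the 1 target below 0, with 483 in L-Lpcat3 KO liver and 794 in control liver (-0.72). Of the targets on the array 7 stayed below the floor in both livers, among them Tnf, Il6 and Nos2.

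**Figure D3:**
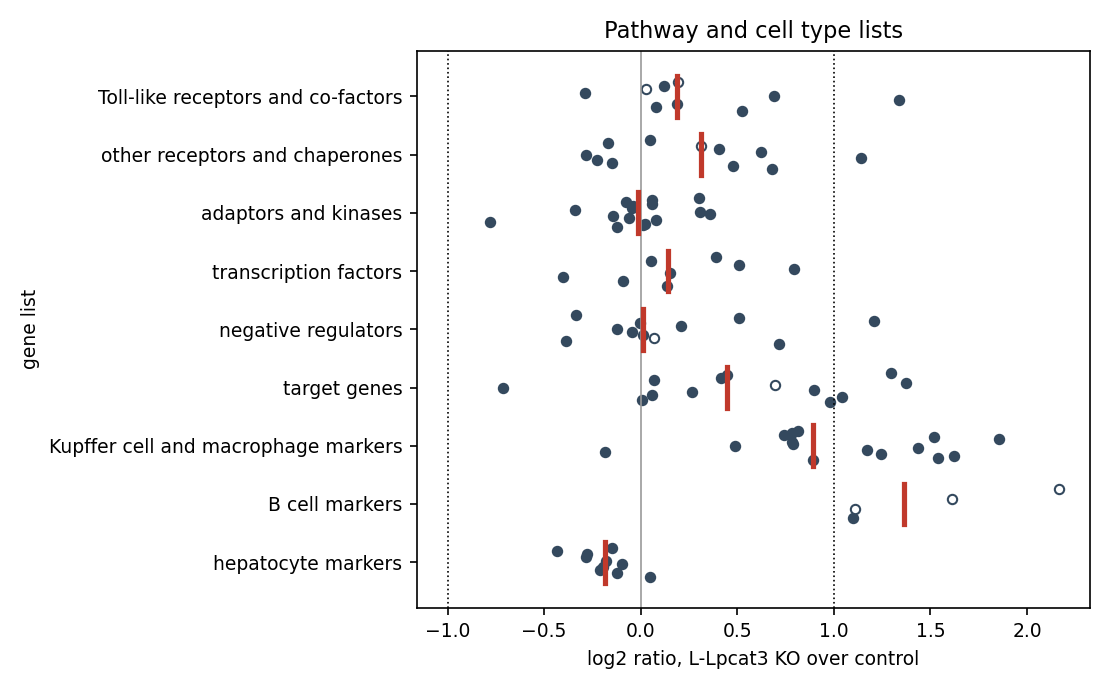
Each point is a measured gene placed by log2 of L-Lpcat3 KO over control, open where the floor was reached on 1 array only; medians of the lists are red bars, and the 2-fold limits are dotted. The 9 measured Toll-like genes have a median of 0.19, adaptors and kinases of -0.01, target genes of 0.45, and macrophage markers, at 0.89, lie further right.

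In the list of Kupffer cell and macrophage markers, 7 of 15 measured genes exceeded control by 2-fold or more, beside 2.70% of all measured genes. None was that much lower, and the median log2 ratio was 0.89 (1.86-fold). The summed signal of all 16 markers on the array was 40191 in L-Lpcat3 KO liver and 19205 in control liver. None was at 0, and the sums include Itgam, which lay below the floor in both. Lyz2 (1.86) and C1qb (1.62) had the highest ratios, although the 3 measured probe sets of C1qb lay between 0.73 and 1.62. Csf1r (0.79, with 3 probe sets between 0.58 and 1.16) and Mpeg1 (0.74) had the highest geometric mean signal of both arrays. Cd5l, a secreted macrophage protein named after its values were seen, was called at 1.17, and Cd163 was the 1 marker below 0, at -0.19. Besides the arrays, the study reported real-time PCR of selected inflammation genes in livers on western diet, which was not used here. The study had itself selected 5 of these markers on the same arrays, so their direction is not independent, and without them 2 of 10 were called and the median was 0.79. The ratio of Tlr1 is above this median, and those of Tlr2, Cd14, Ly96, Myd88 and Tlr5 are below it. All 4 measured B cell markers were called, with a median of 1.36. The summed signal of the 5 on the array, Pax5 included, was 1223 in L-Lpcat3 KO liver and 390 in control liver. Of the 4 ratios 3 are lower bounds, the largest for Ms4a1 (at least 4.49-fold, or 2.17 on the log2 scale, with 0.30 on its other probe set). Pax5, which defines the lineage, lay below the floor in both livers.

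Other cell types gave smaller or less certain values. Their counts stand beside 2.70% of all measured genes called higher. Summed signals cover every marker of a list on the array, including any below the floor. Markers of neutrophils and monocytes were called in 2 of 5 measured genes (median 0.44, summed signal 887 in L-Lpcat3 KO liver and 542 in control liver). Dendritic cell markers were called in 1 of 4 (median 0.54), with a summed signal of 848 in L-Lpcat3 KO liver and 521 in control liver. Endothelial markers were called in 2 of 8 (median 0.39), with 8425 in L-Lpcat3 KO liver and 6398 in control liver. Stellate cell markers were called in 1 of 7 (median 0.54), with 20252 in L-Lpcat3 KO liver and 15646 in control liver. Of 6 T cell and NK cell markers on the array 5 lay below the floor in both livers. Hepatocyte markers had a median of -0.19 over 10 genes, 9 below 0 and 1 above, and none was called. Those of highest mean signal were Apoa1, at a log2 ratio of -0.12, and Ttr, at -0.15. The 1 above 0 was Alb, which marks the tissue as liver and read 33219 in L-Lpcat3 KO liver and 32117 in control liver. In whole liver, more cells of a type and more RNA per cell cannot be told apart, and the part of these cell types in the ratios of Tlr1, Tlr2, Cd14 and Ly86 was not tested.

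The call of Tlr1 held under median centring (log2 ratio 1.29), quantile normalization (1.25) and loess (1.30). It was lost with a pseudocount of 50 in place of the floor (0.98). A lower floor, no floor and the choice of probe sets could not change its ratio, since its single probe set reached the floor on both arrays. Over the 10 settings in which Tlr1 was measured, its log2 ratio ran from 0.98 to 1.34. Tlr1 was not measured once the floor was put at the 75th percentile. Tlr2 ran from 0.50 to 0.69 and Cd14 from 0.42 to 0.52, both under 2-fold throughout. Tlr7 ran from 0.14 to 1.51, the highest value being reached in the 3 settings that use its control signal as it stands. Tlr3 was below 0 in 9 settings and at 0.25 in the one restricted to probe sets designed for single transcripts. Ly96 ran from 0.03 to 0.08, Tlr5 from 0.07 to 0.13 and Myd88 from 0.14 to 0.21. Tlr8 had a value in 2 settings, 0.22 with the pseudocount and 0.82 with no floor.

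**Figure D4:**
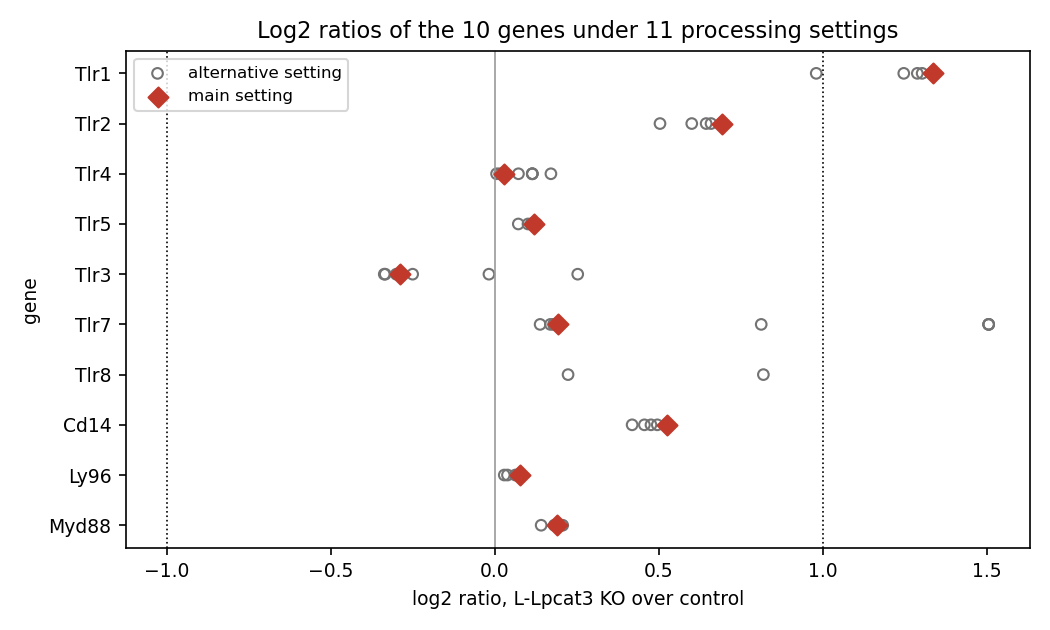
Each row is a gene, with red diamonds at log2 of L-Lpcat3 KO over control as reported and open circles at its value under the alternatives; the 2-fold limits are dotted. Tlr1 stays to the right of the others except Tlr7, whose circles reach 1.51 where no floor is applied to its control signal, and Tlr8 has values only where no floor is used.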

How the data were processed

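Liver RNA pooled from 5 mice of each genotype was hybridized to 1 Affymetrix array per genotype. MAS5 was used by the authors to compute signals (the processing notes give no version), and GenespringGX is named in their methods. The value table deposited holds signal intensity on a linear scale; the mean without 2% of values at each end was 500.0 on both arrays, so both had been scaled alike. Scaling of this kind assumes that most transcripts are equal, and signals near background carry most noise. Detection calls were not used here, and the number of arrays limits precision.

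Gene symbols came from the platform annotation and were updated by gene identifier to RefSeq GRCm38.p6 (18032 of 18193 genes matched). Of 45101 probe sets, 932 with several symbols, 9160 without one and 64 controls were left out. The signal was raised to a floor at the median of all values, and log2 ratios were taken as described in the report. The named genes are the 10 members, Lpcat3, the called genes and the gene of highest signal of each pathway list, and for cell types up to 4 genes; any other gene named, such as Lbp, Cd180 and Alb, was chosen after its values were seen. The members and lists were chosen with earlier results of these data known. With 1 pool per genotype no test was made. The counting was tested on simulated data in which only genes well above the floor were changed. That test does not cover calls near the floor, such as that of Tlr1. Alternatives were median centring, quantile normalization, loess, other floors or none, a pseudocount, the mean of probe sets, probe sets of single transcripts only, other thresholds, and genes measured on both arrays, which was added after the data were seen. The work was done in Python 3.11.15 with matplotlib 3.10.9, pandas 2.3.3, statsmodels 0.14.6, numpy 2.4.6 and scipy 1.17.1.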

Additional observations from a re-analysis of the deposited data

How the results depend on the processing

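The median log2 ratio of those of the 10 genes that were measured stayed between 0.12 and 0.36 over all settings. The genes it covers changed: 9 as reported, 3 with the floor at the 75th percentile (0.12) and 10 with no floor (0.36). The median of macrophage markers lay between 0.81 and 1.12, and that of hepatocyte markers between -0.24 and -0.06. The number of the 10 genes called, 1 as reported, was 2 with a floor at the 25th percentile, with no floor and with values below the floor kept, in each case Tlr1 and Tlr7. It was 0 with a floor at the 75th percentile, where 3 of the 10 were measured, with a pseudocount of 50 and at 3-fold, and 2 at 1.5-fold. The share of all genes called in either direction, 3.40% as reported, was 9.996% with the lower floor, 1.52% with the higher one, 18.8% with none, 7.29% with values below the floor kept, 12.9% at 1.5-fold and 0.537% at 3-fold. Of the other receptors and chaperones, 2 were called with the lower floor, with none, with values below the floor kept and with the pseudocount, 3 at 1.5-fold and 0 at 3-fold, against 1 as reported. Of adaptors and kinases 1 and of transcription factors 1 were called at 1.5-fold, against 0. Of negative regulators 2 were called at 1.5-fold and 0 at 3-fold or with the higher floor, against 1. Of target genes 6 were called with no floor, 7 at 1.5-fold and 0 at 3-fold, against 3. Changes at another threshold follow from the threshold; the cause of the others was not tested. Centring, quantile normalization, loess and the choice of probe sets changed none of these counts by more than 1.5 times. No paired analysis was possible because each genotype has 1 array, and leaving out a replicate was not possible for the same reason. Signals near background limit what can be said of Tlr4, Tlr7, Tlr8 and the control value of Tlr1.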
